A study of Mus musculus with 7 samples.

Results

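The 10 genes Siglec1, Siglece, Siglecg, Cd33, Cd300a, Cd300lf, Cd300lb, Cd300ld, Cd300e and Lilrb4a encode surface receptors of the Siglec, CD300 and LILR families on myeloid cells. They were taken by name from an array data set on colon macrophages, keeping for each gene the probe set that the platform annotation gives to that gene alone. All 10 were found, out of 22180 genes measured, and each had exactly 1 such probe set.

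Macrophages were sorted from mouse colon lamina propria as Ly6C-negative cells positive for CD45, CD11b, CD64 and MHCII. All mice had colitis from 5 days on 5% DSS, a polysaccharide that damages the gut lining, and then drank water alone for 3 days. The 4 LysM+/cre samples came from Rictorfl/fl LysM+/cre mice, which carry floxed alleles of the mTORC2 subunit gene Rictor and a single cre allele inserted at Lyz2, the gene also called LysM. The 3 LysM+/+ samples came from Rictorfl/fl LysM+/+ mice, which carry the same floxed alleles without cre. LysM drives cre in monocytes, macrophages and neutrophils, and no group carried cre without floxed Rictor, so loss of Rictor and the presence of cre cannot be told apart. Ages are not given in the labels. Each sample was hybridised to 1 Affymetrix Mouse Gene 2.0 ST array, and the values are log2 intensities. Whether the samples came from separate mice is not stated, so the p-values measure the spread between these samples, which may be technical. Precision is limited by the number of arrays.

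The probe set of Rictor read 7.72, 7.76, 8.25 and 7.80 on the LysM+/cre arrays, against 7.76, 7.74 and 7.80 on the LysM+/+ arrays. It does not separate the genotypes, and since its position in the gene was not known here it does not check the labels. The Rictor difference was 0.12 (SE 0.13, adjusted p = 0.749), and Lyz2, the site of the cre insertion, differed by -0.13 (SE 0.13, adjusted p = 0.722). The 14 macrophage and sort gate genes all lay above the array median of 5.16 to 5.22, and their mean level was 11.15 to 11.61 on the LysM+/cre arrays and 11.26 to 11.51 on the LysM+/+ arrays. At a limma unadjusted p under 0.05, 2 of them were higher (6.56% of all genes) and 1 lower (4.93%). Fcgr1, which encodes the gate marker CD64, differed by 0.97 (adjusted p = 0.362) and Itgam, which encodes CD11b, by 0.53 (adjusted p = 0.415), both with overlap. Cd68 differed by -0.20 (adjusted p = 0.419) without overlap. The genes of Ly6C, the marker that the gate excludes, are not among these 14. Ly6c2 read 9.30, 7.69, 7.87 and 8.48 on the LysM+/cre arrays, against 6.87, 7.15 and 7.70 on the LysM+/+ arrays. Its difference was 1.09 (limma unadjusted p = 0.0323, adjusted p = 0.415), with overlap. Ly6c1 lay below the array median, with means of 3.10 in LysM+/cre and 3.19 in LysM+/+. A pair of arrays stood apart in the mean deviations of marker gene lists. LysM+/+ array 2 had the highest mean deviation of 13 tissue-resident macrophage genes (1.41, against -0.71 to 0.25 on the other arrays) and the lowest of 17 neutrophil genes (-1.16). LysM+/cre array 3 had the highest neutrophil deviation (1.42, against -1.16 to 0.39 on the other arrays).

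Siglecs are immunoglobulin-like lectins that bind sialic acid, the sugar that caps many glycans of the body's own cells. CD300 receptors bind lipids such as phosphatidylserine that are exposed on dying cells, and LILRB4 binds fibronectin. Inhibitory members carry tyrosine motifs called ITIMs in their tails, which, once phosphorylated by Src-family kinases, recruit the phosphatases SHP-1, SHP-2 and SHIP-1. Activating members have short tails and signal through adaptors such as DAP12 or the Fc receptor gamma chain, which recruit the kinase Syk. In tissue macrophages such receptors are known for setting the threshold at which cells respond to microbes and dying cells.

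The inhibitory receptor gene Siglece was 1.62-fold higher in LysM+/cre macrophages and the inhibitory receptor gene Lilrb4a slightly lower, and neither gene showed overlap between genotypes. Differences of the other 8 genes lay between -0.44 and 0.73 on the log2 scale, and for these 8 the 95% confidence interval included 0. No receptor gene passed an adjusted p of 0.05 (limma, Benjamini-Hochberg over all 22180 genes), and neither did any other gene (0% of all genes). The smallest adjusted p among the 10 was 0.396. At an unadjusted p under 0.05, 1 of the 10 was higher, against 6.56% of all genes, and 1 was lower, against 4.93%. In all, 2 of 10 stood at that threshold where 11.5% of all genes did, a count near the background. Likewise 2 of 10 had no overlap between genotypes, against 8.79% of all genes, with 1 on the higher side (5.23% of all genes) and 1 on the lower (3.56%). The direction was mixed, with 3 genes higher and 7 lower at a median difference of -0.05, while 51.4% of all genes were higher at a median of 0.0044.

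**Figure D1:**
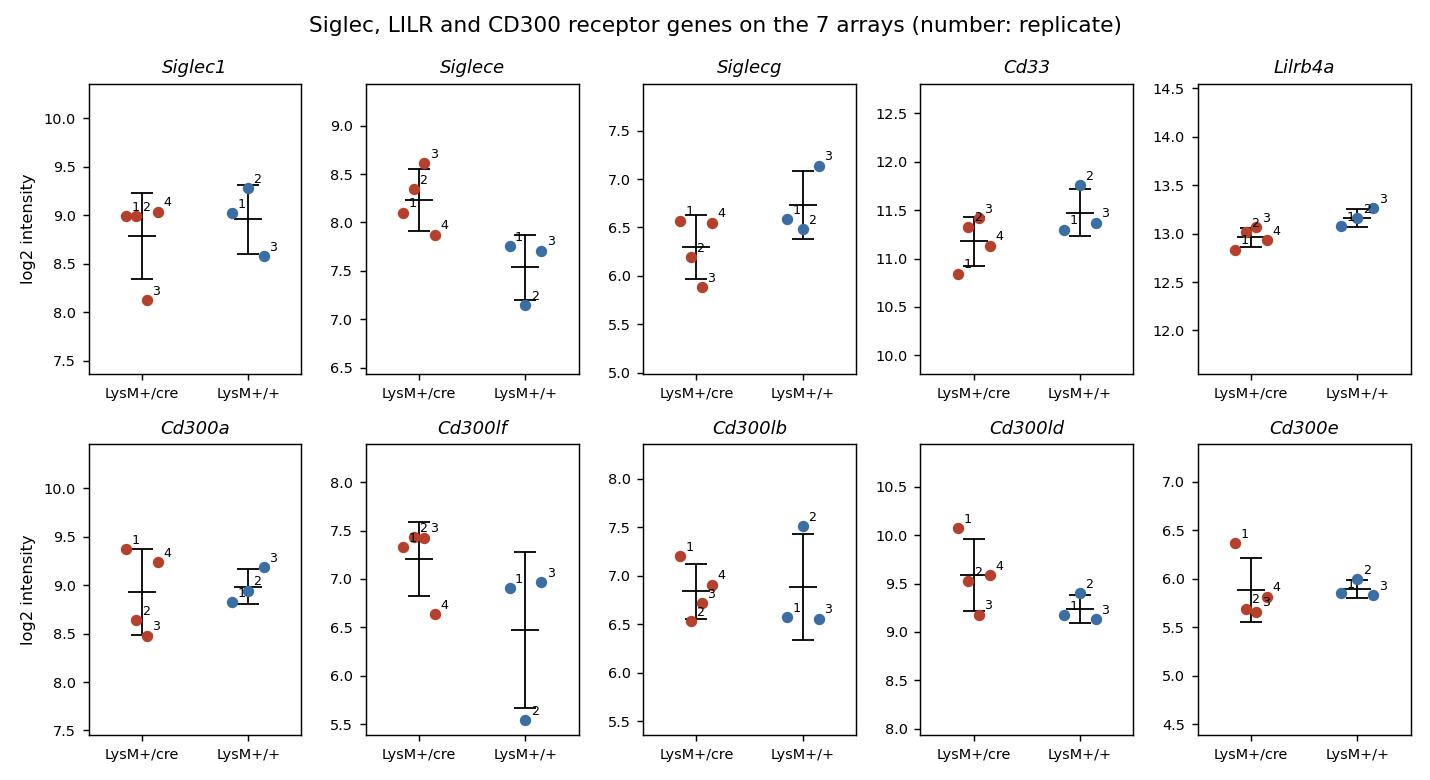
Log2 intensity of the 10 receptor genes on each array, LysM+/cre (red, n = 4) left of LysM+/+ (blue, n = 3). Numbers are replicates, bars are means ± SD, and every panel spans the same log2 range. Siglece and Lilrb4a show no overlap between genotypes, and LysM+/+ array 2 lies at 5.54 in Cd300lf, below the other arrays.

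Among the inhibitory receptors, Siglece encodes Siglec-E, an ITIM-bearing Siglec of neutrophils, monocytes and macrophages that restrains inflammatory responses in mice. Siglece read 8.10, 8.34, 8.61 and 7.87 on the LysM+/cre arrays, against 7.75, 7.15 and 7.71 on the LysM+/+ arrays. Every LysM+/cre array was above every LysM+/+ array, the closest being 7.87 and 7.75, and LysM+/+ array 2 was the lowest of all. The means were 8.23 ± 0.32 (SD, n = 4) in LysM+/cre and 7.54 ± 0.34 (SD, n = 3) in LysM+/+ macrophages. The difference was 0.70 (95% confidence interval 0.18 to 1.21, SE 0.22), with a limma unadjusted p of 0.0156 and an adjusted p of 0.396. Without LysM+/+ array 2 the difference was 0.50 and its unadjusted p 0.0536. The mean deviations of the 17 neutrophil genes were -0.37, 0.23, 1.42 and -0.32 on the LysM+/cre arrays, against 0.39, -1.16 and -0.20 on the LysM+/+ arrays, so they shared their highest and lowest array with Siglece. Of these 17 genes 3 lay below the array median. With the neutrophil score as a covariate the difference was 0.49 (unadjusted p = 0.0038, adjusted p = 0.263). With the tissue-resident macrophage score as a covariate it was 0.36 (unadjusted p = 0.205, adjusted p = 0.688), and with the monocyte score 0.80 (unadjusted p = 0.0706, adjusted p = 0.862). The monocyte score did not overlap between genotypes, at -0.09 to 0.58 in LysM+/cre and -0.64 to -0.13 in LysM+/+. A fit with it as a covariate therefore separates score and genotype poorly on 7 arrays. In bulk RNA, fewer cells of a type and less RNA per cell cannot be told apart.

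Cd300lf encodes CLM-1, an ITIM-bearing CD300 receptor that binds phosphatidylserine and ceramide. Its probe set read 7.33, 7.43, 7.42 and 6.63 on the LysM+/cre arrays, against 6.91, 5.54 and 6.96 on the LysM+/+ arrays. LysM+/cre array 4 lay below LysM+/+ arrays 1 and 3, so the genotypes overlapped, and LysM+/+ array 2 was far below the rest. The difference of 0.73 (95% confidence interval -0.18 to 1.65) had the largest size of the 10 and an adjusted p of 0.506. Without LysM+/+ array 2 it was 0.27. With the tissue-resident macrophage score as a covariate it turned to -0.03 (adjusted p = 0.989).

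Siglece and Cd300lf shared their lowest array, LysM+/+ array 2, and both read high on LysM+/cre arrays 2 and 3. Cd33 and Cd300lb, by contrast, were highest on LysM+/+ array 2. The 250 bases before the annotated start of these 4 genes are printed to set the oppositely placed pairs side by side, from RefSeq on GRCm38.p6 and read along the gene's strand. Capitals mark the core GAGGAA, or TTCCTC where it lies on the other strand, which the myeloid transcription factor PU.1 is known to bind.
Siglece, chr7:43660162-43660411, minus strand: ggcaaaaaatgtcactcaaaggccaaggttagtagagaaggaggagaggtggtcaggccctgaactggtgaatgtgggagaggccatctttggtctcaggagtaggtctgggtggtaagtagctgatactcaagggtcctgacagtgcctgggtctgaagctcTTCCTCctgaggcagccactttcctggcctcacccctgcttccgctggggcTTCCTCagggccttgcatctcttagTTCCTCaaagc
Cd300lf, chr11:115133993-115134242, minus strand: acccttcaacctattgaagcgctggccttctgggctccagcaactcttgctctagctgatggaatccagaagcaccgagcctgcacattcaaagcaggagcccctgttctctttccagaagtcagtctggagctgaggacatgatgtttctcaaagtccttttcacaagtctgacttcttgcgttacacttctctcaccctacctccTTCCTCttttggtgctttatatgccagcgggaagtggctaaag
Cd33, chr7:43533172-43533421, minus strand: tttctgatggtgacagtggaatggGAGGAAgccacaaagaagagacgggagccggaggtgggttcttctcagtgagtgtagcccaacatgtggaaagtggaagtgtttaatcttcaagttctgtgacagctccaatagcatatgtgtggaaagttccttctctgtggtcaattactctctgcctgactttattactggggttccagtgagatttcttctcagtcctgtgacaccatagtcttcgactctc
Cd300lb, chr11:114934372-114934621, minus strand: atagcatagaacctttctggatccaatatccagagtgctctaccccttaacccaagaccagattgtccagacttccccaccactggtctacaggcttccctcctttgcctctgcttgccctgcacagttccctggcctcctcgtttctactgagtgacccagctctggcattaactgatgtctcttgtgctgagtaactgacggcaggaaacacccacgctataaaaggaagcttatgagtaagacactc

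The core occurred 3 times before Siglece, with first bases 87, 36 and 11 bases before the start, and once before Cd300lf, 43 bases before the start. It occurred once before Cd33, 226 bases before the start, and not in this window before Cd300lb. Of the 8 receptor genes with a promoter in the table, 6 held the core before at least 1 start (Siglece, Siglecg, Cd33, Cd300a, Cd300lf and Cd300ld). Of all 32851 promoters 23.3% held it. The first count is per gene and the shares of all promoters are per start, so they are not the same measure. Siglecg has 2 annotated starts, and its core lay before 1 of them. The interferon response element (GAAA, then NN, then GAAA) was found before 0 of the 8 and before 2.98% of all promoters. CCAAT lay before Cd33 and Cd300lb (33.8% of all promoters), and TATAA before Cd300lf and Cd300lb (22.8%). Both strands were searched, and no pair of these motifs contains the other. A match is a description of the letters and shows no binding.

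Lilrb4a encodes gp49B, an ITIM-bearing receptor that dampens mast cell and macrophage activation in mice. Lilrb4a read 12.84, 13.01, 13.07 and 12.93 on the LysM+/cre arrays, against 13.08, 13.16 and 13.26 on the LysM+/+ arrays. The genotypes did not overlap, but LysM+/cre array 3 and LysM+/+ array 1 differed only in the second decimal. The means were 12.96 ± 0.10 (SD, n = 4) in LysM+/cre and 13.17 ± 0.09 (SD, n = 3) in LysM+/+ macrophages. The difference was -0.21 (95% confidence interval -0.39 to -0.02), a ratio of 0.867 of LysM+/cre to LysM+/+, with a limma unadjusted p of 0.0366 and an adjusted p of 0.416. Log2 differences of probe sets this bright can be compressed. Leaving out single arrays gave -0.25 to -0.16. With array medians set equal the difference was -0.18 and its unadjusted p 0.0518, and with the monocyte score as a covariate it was -0.10 (unadjusted p = 0.459, adjusted p = 0.919). A second probe set, which the annotation gives to Lilrb4a and its adjacent paralog Lilr4b together, read 12.27, 12.38, 12.71 and 12.55 on the LysM+/cre arrays, against 12.75, 12.64 and 12.90 on the LysM+/+ arrays. Its difference was -0.29 (SE 0.12), with LysM+/cre array 3 above LysM+/+ array 2, and signals of the paralogs cannot be separated there.

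Siglecg encodes Siglec-G, an inhibitory Siglec best known from B cells, which binds sialylated CD24. The Siglecg values were 6.57, 6.19, 5.88 and 6.55 on the LysM+/cre arrays, against 6.59, 6.48 and 7.14 on the LysM+/+ arrays. LysM+/+ array 3 was the highest and LysM+/cre array 3 the lowest, and LysM+/cre arrays 1 and 4 lay above LysM+/+ array 2. The difference was -0.44 (95% confidence interval -0.97 to 0.10, adjusted p = 0.497). Without LysM+/+ array 3 it was -0.24, with the monocyte score as a covariate -1.06 (unadjusted p = 0.00128, adjusted p = 0.862), and with the interferon score -0.49 (unadjusted p = 0.00357, adjusted p = 0.333). The 13 B and plasma cell genes measured had mean deviations of -0.20, 0.10, -0.07 and 0.21 on the LysM+/cre arrays, against -0.10, 0.02 and 0.03 on the LysM+/+ arrays. Of these 13 genes 6 lay below the array median, and their part in the Siglecg values was not tested.

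Cd300a encodes an ITIM-bearing receptor for phosphatidylserine and phosphatidylethanolamine. The Cd300a values were 9.37, 8.64, 8.48 and 9.24 on the LysM+/cre arrays, against 8.83, 8.94 and 9.19 on the LysM+/+ arrays. The LysM+/cre arrays spanned the whole LysM+/+ range on both sides, with arrays 1 and 4 above it and arrays 2 and 3 below it. The difference was -0.06 (95% confidence interval -0.62 to 0.51, adjusted p = 0.941).

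Cd33 encodes Siglec-3, whose mouse form differs from the human receptor in its tail and in how it signals. Cd33 read 10.84, 11.33, 11.42 and 11.13 on the LysM+/cre arrays, against 11.30, 11.76 and 11.37 on the LysM+/+ arrays. The genotypes overlapped, with LysM+/+ array 2 highest and LysM+/cre array 1 lowest. The difference was -0.30 (95% confidence interval -0.70 to 0.11, adjusted p = 0.538), and it was -0.16 without LysM+/+ array 2. Of all pairs among the 10 genes, Cd33 and Lilrb4a had the smallest root mean square difference (0.175) between their deviations from their own means. No limit on SD was set for these pairs, and the measure favours genes that vary little. The SD over all arrays was 0.278 for Cd33 and 0.141 for Lilrb4a. As 0.175 is larger than the SD of Lilrb4a, this rank does not show that their patterns were the most alike.

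The activating CD300 receptors showed no common direction. Cd300lb encodes CLM-7, which signals through DAP12 in mouse myeloid cells. Cd300lb read 7.20, 6.53, 6.72 and 6.91 on the LysM+/cre arrays, against 6.57, 7.51 and 6.55 on the LysM+/+ arrays. LysM+/+ array 2 was the highest of the 7, and the difference of -0.04 (adjusted p = 0.963) became 0.28 without it. Cd300ld encodes CLM-5, which pairs with the Fc receptor gamma chain. Cd300ld read 10.07, 9.52, 9.18 and 9.59 on the LysM+/cre arrays, against 9.17, 9.40 and 9.13 on the LysM+/+ arrays. LysM+/cre arrays 1, 2 and 4 were above all LysM+/+ arrays and LysM+/cre array 3 was among them. The difference was 0.35 (95% confidence interval -0.12 to 0.83, adjusted p = 0.533). It was 0.19 without LysM+/cre array 1. Leaving out LysM+/cre array 3 gave 0.49, and leaving out LysM+/+ array 2 as well gave 0.57 (unadjusted p = 0.0334, adjusted p = 0.432). With the neutrophil score as a covariate it was 0.52 (unadjusted p = 0.0122, adjusted p = 0.327), and with the monocyte score 0.02 (unadjusted p = 0.941, adjusted p = 0.997).

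Cd300e encodes a receptor that in human monocytes signals through DAP12. The probe set of Cd300e read 6.37, 5.69, 5.66 and 5.82 on the LysM+/cre arrays, against 5.85, 5.997 and 5.83 on the LysM+/+ arrays. LysM+/cre array 1 was above all others and LysM+/cre arrays 2, 3 and 4 below all others. The difference was -0.01 (95% confidence interval -0.43 to 0.41, adjusted p = 0.990). On average this probe set lay 0.70 above the array median.

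Siglec1 encodes sialoadhesin (CD169), which has many immunoglobulin domains and no ITIM, binds sialylated cells and particles, and is induced by type I interferon. Siglec1 read 8.99, 8.99, 8.12 and 9.04 on the LysM+/cre arrays, against 9.02, 9.28 and 8.58 on the LysM+/+ arrays. LysM+/cre arrays 1, 2 and 4 and LysM+/+ array 1 lay together, LysM+/+ array 2 was highest and LysM+/cre array 3 lowest. The difference was -0.17 (95% confidence interval -0.82 to 0.47, adjusted p = 0.825), and it was 0.05 without LysM+/cre array 3. The 19 interferon response genes had mean deviations of 0.39, -0.11, -0.36 and 0.19 on the LysM+/cre arrays, against 0.00, -0.54 and 0.42 on the LysM+/+ arrays. Siglec1 was highest on the array with the lowest interferon score, LysM+/+ array 2. It was lowest on the array with the next lowest score, LysM+/cre array 3. Of these 19 genes 1 was higher at an unadjusted p under 0.05 (Zbp1, a nucleic acid sensor, difference 0.93, adjusted p = 0.415) and 0 were lower, or 5.26% in either direction against 11.5% of all genes.

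**Figure D2:**
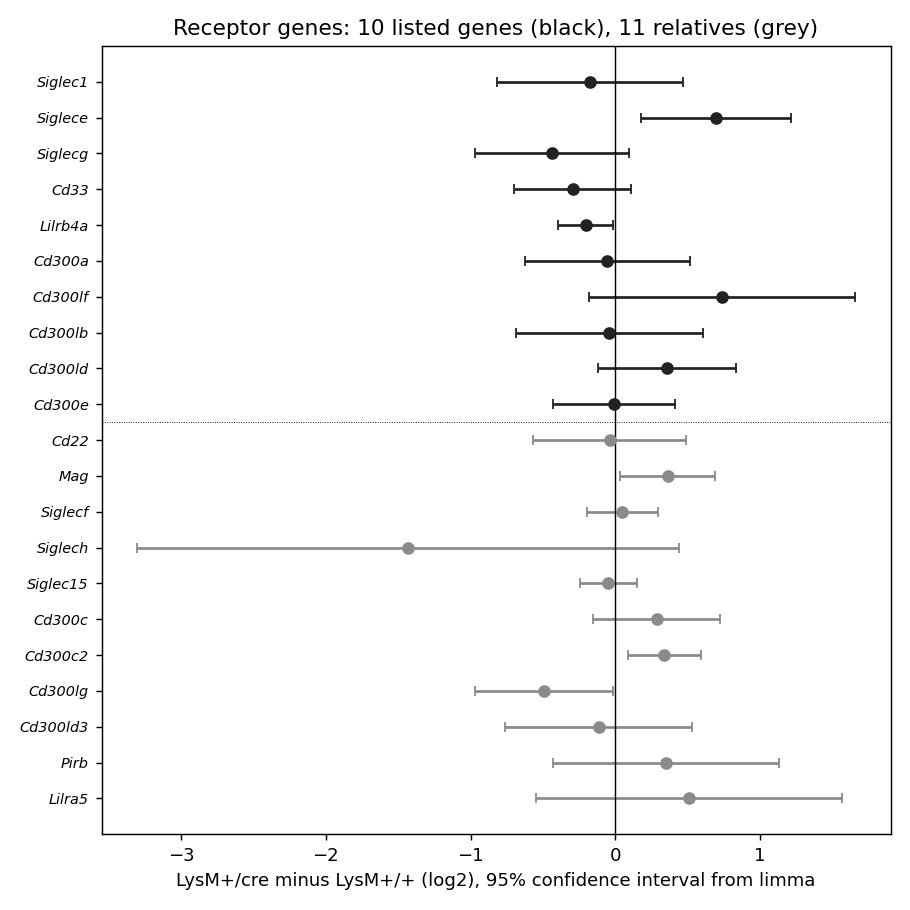
Difference of LysM+/cre minus LysM+/+ on the log2 scale with its 95% confidence interval from limma, for the 10 receptor genes (black) and 11 relatives of their families (grey). The intervals of Siglece and Lilrb4a in the upper block, and of Mag, Cd300c2 and Cd300lg in the lower, do not include 0.

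The arrays that stood apart in the marker gene lists lay at an end of the range, one or the other, for 8 of the 10 receptor genes, against 53.1% of all genes. LysM+/+ array 2 was the highest or the lowest of the 7 arrays for 5 of the 10 receptor genes, against 33% of all genes. It was the highest for 3 (Siglec1, Cd33 and Cd300lb, against 16.5% of all genes) and the lowest for 2 (Siglece and Cd300lf, against 16.5%). LysM+/cre array 3 was at an end for 5 of 10, against 27.7% of all genes, and was the highest for 1 (Siglece, against 15% of all genes) and the lowest for 4 (Siglec1, Siglecg, Cd300a and Cd300e, against 12.7%). In 4 of 10 genes the 7 arrays spanned more than 1 on the log2 scale, against 12.5% of all genes. These were Cd300lf (1.89), Siglece (1.47), Siglecg (1.26) and Siglec1 (1.16), while Lilrb4a spanned 0.43. The share of all genes includes dim probe sets, whereas each of the 10 receptor genes lay above the array median on average. The part of the macrophage, monocyte and neutrophil lists in these values was not tested beyond the covariate fits given here. With both arrays left out, the Siglece difference was 0.37 (unadjusted p = 0.063, adjusted p = 0.499), Cd300lf 0.20 and Lilrb4a -0.24 (adjusted p = 0.474). Siglec1, Cd300a, Cd300lb and Cd300e then changed sign, to 0.21, 0.07, 0.32 and 0.12.

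**Figure D3:**
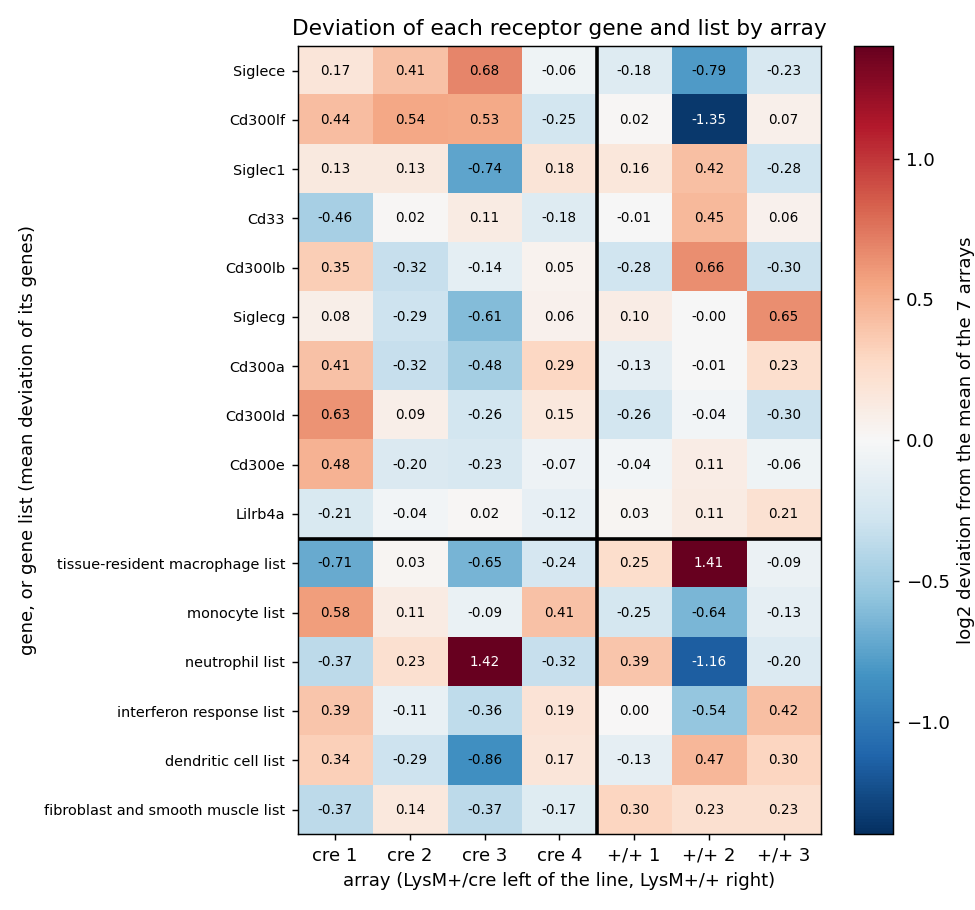
Deviation from the mean of the 7 arrays, in log2 units, of the 10 receptor genes and of the mean of 6 gene lists, with LysM+/cre arrays left of the line and LysM+/+ arrays right of it. On LysM+/+ array 2 the tissue-resident macrophage list (1.41) is high and the neutrophil list (-1.16) low, while Siglece and Cd300lf are low and Siglec1, Cd33 and Cd300lb high.

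Genes with the most similar deviations were sought among those whose SD over the 7 arrays was at least 0.8 of the receptor's. For Siglece they were Nus1 (root mean square difference 0.132), Emb (0.139) and Slco4a1 (0.153), and for Cd300lf they were Tgfb3 (0.214), Arhgap24 (0.225) and Msrb1 (0.231). For Lilrb4a the closest was Clasp1 (0.0258), for Siglec1 Qtrt2 (0.0749), for Siglecg Grk5 (0.0734) and for Cd33 Pcyox1 (0.0664). Among the CD300 genes it was Pfkp for Cd300a (0.0737), Fam83b for Cd300lb (0.109), Nuak2 for Cd300ld (0.0628) and Tmem184b for Cd300e (0.0698). These are likenesses over 7 arrays of 2 genotypes, picked from 790 to 13396 candidate genes.

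Apart from Cd300lg, which has 146 protein-coding genes between it and Cd300a, the CD300 genes in the RefSeq table form a cluster on mouse chromosome 11, in the order Cd300a, Cd300lb, Cd300c, Cd300ld, Cd300c2, several Cd300ld copies, Cd300e and Cd300lf, with 1 other protein-coding gene before Cd300lf. The neighbours differed in direction. Cd300c2, a DAP12-type activating receptor gene next to Cd300ld, read 9.55, 9.47, 9.20 and 9.43 on the LysM+/cre arrays, against 9.14, 9.17 and 8.92 on the LysM+/+ arrays. The genotypes did not overlap in Cd300c2, and its difference was 0.34 (SE 0.11, unadjusted p = 0.016, adjusted p = 0.396). Leaving out single arrays gave 0.26 to 0.41. Cd300c, between Cd300lb and Cd300ld, differed by 0.29 (SE 0.18, adjusted p = 0.579), and Cd300ld3 by -0.12 (SE 0.27, adjusted p = 0.887). A pair of probe sets that the annotation shares between Cd300lf, Cd300ld3, Cd300ld4 and Cd300ld5 differed by -0.19 and -0.15, the opposite sign to the probe set of Cd300lf alone. On LysM+/+ array 2 these shared probe sets were at their highest (10.89 and 10.04), where the probe set of Cd300lf alone was at its lowest (5.54). Cd300ld3 was also highest there, with 8.57 on LysM+/+ array 2 against 7.42 to 8.14 on the other arrays.

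**Figure D4:**
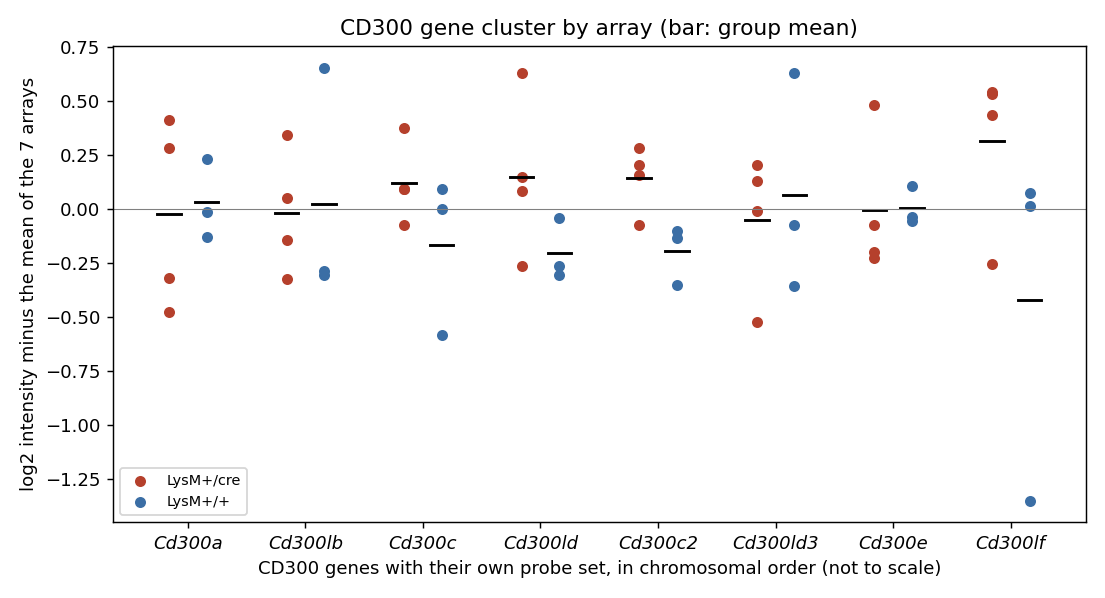
Deviation of 8 CD300 genes from their mean over the 7 arrays (log2), in their order on chromosome 11 and not to scale, with LysM+/cre (red, 4 arrays) left of LysM+/+ (blue, 3 arrays) and bars at the group means. Cd300c2 shows no overlap between genotypes, and the lowest blue point of Cd300lf is LysM+/+ array 2.

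Of 23 other genes of the 3 families that were listed, 11 had a probe set of their own. At an unadjusted p under 0.05, 2 were higher (Cd300c2 and Mag, against 6.56% of all genes) and 1 was lower (Cd300lg, against 4.93%), and 0 passed after adjustment. Mag, a myelin Siglec, differed by 0.36 (adjusted p = 0.416) at 5.56 ± 0.23 (SD, n = 4) in LysM+/cre and 5.20 ± 0.15 (SD, n = 3) in LysM+/+ macrophages, close to the array median. Cd300lg, a CD300 gene of capillary endothelium, differed by -0.49 (adjusted p = 0.43), and the 11 endothelial genes, of which 3 lay below the array median, had a median difference of -0.19. Their part in the Cd300lg value was not tested. The paired receptor gene Pirb, an ITIM-bearing relative of LILRB receptors that binds MHC class I, differed by 0.35 (adjusted p = 0.695) and by -0.05 without LysM+/+ array 2, where it read 9.33 against 10.26 to 10.86 elsewhere. Lilra5 differed by 0.51 (adjusted p = 0.675). Cd22, the B cell Siglec, differed by -0.04, Siglecf, the eosinophil Siglec, by 0.05, and Siglec15, an osteoclast Siglec, by -0.05. Siglech, a DAP12-coupled Siglec of plasmacytoid dendritic cells, differed by -1.43 (SE 0.79, adjusted p = 0.525) and by -0.39 without LysM+/+ array 2.

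Below the receptors, several genes for shared signalling proteins were higher in LysM+/cre macrophages at an unadjusted p under 0.05, and 0 passed the adjusted threshold. Of 9 measured phosphatases and tail kinases, 4 were higher and 0 lower at an unadjusted p under 0.05, against 6.56% and 4.93% of all genes, and the median difference was 0.12. The list was chosen with earlier results of these data known, so its count is a description only. Dim genes are part of those shares. With dim probe sets left out, 1861 of 11441 genes stood at an unadjusted p under 0.05 in either direction. Ptpn6, which encodes SHP-1, read 9.92, 9.88, 9.59 and 9.83 on the LysM+/cre arrays, against 9.52, 9.08 and 8.98 on the LysM+/+ arrays. No LysM+/cre array of Ptpn6 fell below a LysM+/+ array, and the difference was 0.61 (SE 0.15, adjusted p = 0.354). Csk, the kinase that switches Src-family kinases off, differed by 0.51 (SE 0.13, adjusted p = 0.354), and Ptpn11, which encodes SHP-2, by 0.43 (SE 0.13, adjusted p = 0.395). Fgr, a Src-family kinase of myeloid cells, differed by 1.05 (SE 0.34, adjusted p = 0.401), or by 0.64 without LysM+/+ array 2. The Fgr difference was 0.24 (unadjusted p = 0.119, adjusted p = 0.622) with the tissue-resident macrophage score as a covariate and 0.34 (unadjusted p = 0.458, adjusted p = 0.919) with the monocyte score. With the tissue-resident macrophage score Ptpn6 differed by 0.61 (limma unadjusted p = 0.0326), Csk by 0.51 (0.0370) and Ptpn11 by 0.68 (0.00144). Their adjusted p values in that fit were 0.529, 0.529 and 0.453. Ptpn11 differed by 0.53 with the monocyte score (limma unadjusted p = 0.0489, adjusted p = 0.862). With the monocyte score Csk differed by 0.27 (adjusted p = 0.870) and Ptpn6 by 0.43 (adjusted p = 0.862), both with an unadjusted p above 0.05. The SE rose in that fit, to 0.17 for Csk and 0.23 for Ptpn6, as the score and the genotype are hard to separate. Inpp5d, which encodes SHIP-1, differed by -0.06.

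Of 12 adaptors and effectors, 4 were higher and 1 lower at the same threshold, again against 6.56% and 4.93% of all genes, with a median difference of 0.25. This list too was chosen with earlier results of these data known. Tyrobp, which encodes DAP12, differed by 0.31 (SE 0.10, adjusted p = 0.406), and its LysM+/cre arrays lay above its LysM+/+ arrays. Fcer1g, the Fc receptor gamma chain, differed by 0.27 (SE 0.10, adjusted p = 0.415) with overlap. Plcg2, a phospholipase below Syk, differed by 0.44 (SE 0.15, adjusted p = 0.406), but by 0.05 with the monocyte score as a covariate (adjusted p = 0.976). Blnk, an adaptor between Syk and phospholipase C, was on the lower side at -0.95 (SE 0.24, adjusted p = 0.354), without overlap, and at -0.54 (unadjusted p = 0.0769, adjusted p = 0.570) with the tissue-resident macrophage score. With that score or the monocyte score, Tyrobp and Fcer1g differed by 0.31 to 0.37, with unadjusted p above 0.05. The monocyte list lay on the higher side, opposite to Blnk, with mean deviations of 0.58, 0.11, -0.09 and 0.41 on the LysM+/cre arrays, against -0.25, -0.64 and -0.13 on the LysM+/+ arrays. Of its 14 measured genes 11 were on the higher side and 3 on the lower. At an unadjusted p under 0.05, 2 were higher and 0 lower, against 6.56% and 4.93% of all genes. Of 13 measured tissue-resident macrophage genes, 12 were on the lower side with a median difference of -0.94, and 6 were lower at an unadjusted p under 0.05 (4.93% of all genes), 4 of them without overlap (3.56%). Their mean deviations were -0.71, 0.03, -0.65 and -0.24 on the LysM+/cre arrays, against 0.25, 1.41 and -0.09 on the LysM+/+ arrays. Of the listed genes 1 in each list lay below the array median, and both lists were chosen with earlier results of these data known. The part of these lists in the results was not tested beyond the covariate fits.

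**Figure D5:**
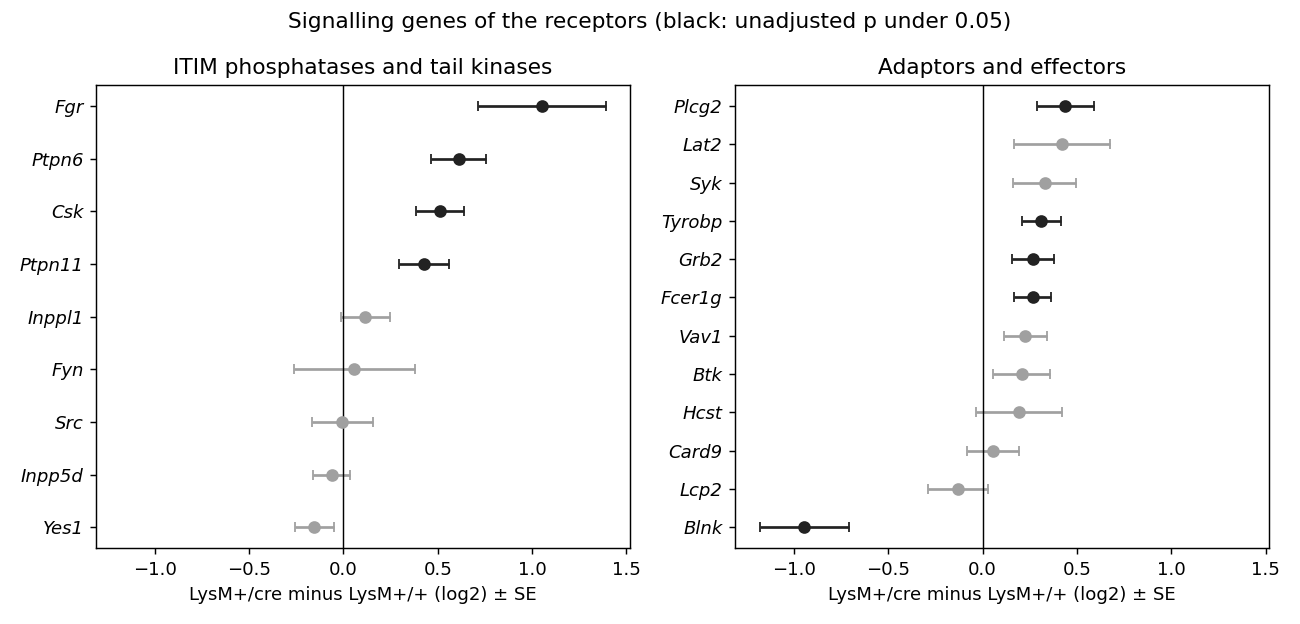
Difference of LysM+/cre minus LysM+/+ (log2) ± SE for 9 phosphatase and kinase genes (left) and 12 adaptor and effector genes (right), black at an unadjusted p under 0.05. Fgr (1.05) lies farthest to the right and Blnk (-0.95) farthest to the left.

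On the ligand side, of 10 genes that encode ligands or carriers of ligands, 0 were higher and 1 was lower at an unadjusted p under 0.05. The shares of all genes were 6.56% and 4.93%, so this count was near the background. The lower gene was Muc1, an epithelial mucin, at -0.73 (adjusted p = 0.394), and the 16 epithelial genes had a median difference of -0.30. Muc1 lay on average only 0.29 above the array median, with LysM+/cre means of 5.16. Their part in the Muc1 value was not tested. Of 26 measured genes that make, transfer or remove sialic acid, 1 was higher and 0 were lower (3.85%, against 11.5% of all genes in either direction). It was St3gal1, a sialyltransferase that caps O-glycans, at 0.37 (SE 0.13, adjusted p = 0.415).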

How the data were processed

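Total RNA of sorted colon macrophages was hybridised to 1 array per sample, for 4 LysM+/cre and 3 LysM+/+ samples. The authors deposited log2 intensities for each probe set, which the design text credits to Affymetrix Expression Console. The submitters' processing notes name Transcriptome Analysis Console as well. For versions, summarisation and background correction no statement was found. Close quantiles (upper quartiles 6.74 to 6.77) show that arrays were scaled to each other, so a shift common to every gene would not show. No detection calls were used.

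Of 41345 probe sets, 23521 had 1 symbol, 1814 several and 16010 none in the platform annotation. The symbols of 23328 were matched by identifier to RefSeq (GRCm38.p6), used for names and neighbours, with 0 changed. The brightest probe set per gene was kept. The comparison used limma 3.58.1 (R 4.3.3) with a two-sided test of LysM+/cre minus LysM+/+, Benjamini-Hochberg adjusted over 22180 genes at 0.05. No low filter was applied, so all 10 receptor genes were tested. In 20 simulated data sets of this comparison (22180 genes, 200 changed), the fit recovered 74.6% of 2-fold and 94.4% of 4-fold changes, with 4.53% false calls. The simulated noise was independent between genes, without arrays that stand apart, and the changed genes were drawn from all genes. These rates therefore need not hold for the receptor genes, of which a larger share than of all genes varied widely between arrays.

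List scores are mean deviations of the genes from their means over the 7 arrays. The monocyte and the fibroblast score did not overlap between genotypes, so a fit with either as a covariate separates it poorly from genotype. A larger p in such a fit cannot be read as an effect of the list. The receptor genes and lists were chosen with earlier results of these data known. Named were all 10, their measured relatives, Rictor and Lyz2, and the genes most alike. Of each signalling, ligand, sialic acid, interferon and macrophage gate list, up to 4 genes at an unadjusted p under 0.05 were named. Inpp5d, Ly6c1, Ly6c2 and genes in the closing observations were chosen after their values were seen. Promoter windows come from RefSeq. As alternatives, scaling, dim probe set removal, probe set rules, variance models, array weights, the replicate block, cell type scores and left-out arrays were tried. Figures were drawn with matplotlib 3.10.9.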

Additional observations from a re-analysis of the deposited data

Results flagged for a closer look

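Siglec1 on the LysM+/cre arrays had 1 array far from the others: LysM+/cre array 3 read 8.12, and the nearest array 8.99, a gap that took up 0.952 of the range of the 4 arrays. Cd300lf had such a gap at LysM+/cre array 4, which read 6.63 with the nearest array at 7.33 (0.869 of the range). The threshold was Dixon's critical value for 4 samples at 95%, which chance passes in about 1 of 20 groups. Here 21 genes were examined.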

How the results depend on the processing

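No gene passed an adjusted p of 0.05 under any of the 21 alternatives, and 0 receptor genes did. The differences of Siglece, Siglecg, Cd300ld and Lilrb4a kept their sign under all alternatives. Receptor genes at an unadjusted p under 0.05 numbered 2 (Siglece and Lilrb4a), and 1 (Siglece) with array medians set equal, with quantile normalization, without dim probe sets (which leaves Siglecf and Cd300lg untested), and with the replicate block. Without LysM+/+ array 2 and LysM+/cre array 3 the 1 gene was Cd300ld. They numbered 3 with the neutrophil score (Siglece, Cd300ld and Lilrb4a) and 3 with the interferon score (Siglece, Siglecg and Cd33). With the monocyte score they were 2 others, Siglecg and Cd300a. They numbered 0 with the fibroblast or the tissue-resident macrophage score as a covariate, and 0 to 3 when 1 array was left out (0 without LysM+/+ array 2, 3 without LysM+/cre array 3). Of all genes, 2549 stood at that p, 4030 with all probe sets tested, 1181 with the monocyte score, 1332 with the fibroblast score, and 1693 to 2779 without single arrays. Signs turned for Cd300e (0.015) with equal medians, Cd300e (0.023) with quantile normalization and Cd22 (0.0012) with array weights. With the neutrophil score they turned for Siglec1 (0.053), Cd300a (0.12), Cd300lb (0.16), Cd300e (0.10) and Cd300ld3 (0.12), with the monocyte score for Cd33 (0.19), Cd300lb (0.061), Siglecf (-0.075) and Lilra5 (-0.038), and with the fibroblast score for Siglec1 (0.22), Cd22 (0.29), Siglecf (-0.21), Siglec15 (0.076), Cd300ld3 (0.11) and Rictor (-0.076). The next 2 alternatives and an interferon score were chosen after seeing the data. Signs turned with the tissue-resident macrophage score for Siglec1 (0.25), Cd300lf (-0.031), Cd300lb (0.33), Siglecf (-0.0029), Siglech (0.19), Cd300ld3 (0.41), Pirb (-0.30) and Lyz2 (0.025), and without both arrays for Siglec1 (0.21), Cd300a (0.074), Cd300lb (0.32), Cd300e (0.12), Cd300ld3 (0.32), Pirb (-0.18), Rictor (-0.018) and Lyz2 (0.053). Without single arrays the differences that turned ranged as follows: Cd22 (-0.21 to 0.087), Cd300a (-0.20 to 0.095), Cd300lb (-0.20 to 0.28), Cd300e (-0.17 to 0.066), Siglec1 (-0.36 to 0.048), Cd300ld3 (-0.33 to 0.17), Rictor (-0.0040 to 0.17), Siglec15 (-0.12 to 0.027), Pirb (-0.052 to 0.64). The cause was not tested. Same-numbered arrays had deviations correlated at -0.115, 0.121 and 0.103, so the numbers do not show pairing. With the replicate block Cd300e turned to 0.014 and 2139 genes stood at an unadjusted p under 0.05. With 4 and 3 arrays, intervals of 8 of the 10 receptor genes reach a 1.5-fold difference in at least one direction.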

Other observations

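Siglech read 6.17, 5.89, 5.24 and 6.23 on the LysM+/cre arrays, against 6.03, 9.40 and 6.50 on the LysM+/+ arrays, so LysM+/+ array 2 stood alone. Of other genes linked to plasmacytoid dendritic cells, Klk1 was also highest on that array, at 10.85, against 7.75 to 8.60 on the LysM+/cre arrays and 8.76 and 9.86 on the other LysM+/+ arrays. Tcf4, their lineage factor, read 8.88 on that array, Bst2 8.91, Ly6d 6.40 and Irf8 9.75, and none of these was highest there. The sialic acid gene Cmah, whose product makes N-glycolylneuraminic acid in mice, read 7.58 on LysM+/+ array 2, against 5.80, 5.81, 5.92 and 6.13 on the LysM+/cre arrays and 5.58 and 5.91 on the other LysM+/+ arrays. The sialyltransferase gene St3gal6 read 8.12 there, against 5.02 to 6.86 on the LysM+/cre arrays and 5.94 and 6.39 on the other LysM+/+ arrays. Siglech, Cmah and St3gal6 were highest on the array that also had the highest tissue-resident macrophage score, as were 16.5% of all genes. They were picked after their values were seen. Other sialic acid genes were highest elsewhere, such as Gne on LysM+/+ array 3, St3gal1 on LysM+/cre array 1 and Siae on LysM+/cre array 4.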
